A study of Homo sapiens with 9 samples.

Results

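The 10 genes followed here are known targets of hypoxia-inducible factor (HIF) that repress transcription, mark mitochondria for removal or feed back on the hypoxic response: BHLHE40, BHLHE41, MXI1, CITED2, BNIP3, BNIP3L, DDIT4, NDRG1, INSIG2 and ANKRD37. They are 10 of 20033 protein-coding genes in the gene table, and their accessible chromatin was read in T47D cells, an established line of human luminal breast cancer. Their regions were those in the gene span, or within 50 kb of either end and nearer to an end of that gene than to that of any other protein-coding gene. This gave 36 of 62779 regions in hypoxia with shZHX2, 40 of 77451 in hypoxia with shCtrl and 46 of 90962 in normoxia with shCtrl. The assay was ATAC-seq, in which a transposase cuts open chromatin and leaves sequencing adapters there. By the labels, 9 samples formed 3 groups of 3: cells with a hairpin RNA against the zinc finger and homeobox factor ZHX2 (shZHX2) in hypoxia, cells with a control hairpin (shCtrl) in hypoxia, and shCtrl cells in normoxia. All cells had been infected with a lentivirus and selected with hygromycin or puromycin. The sources used here do not give the oxygen level, the duration of hypoxia or the number of hairpins, and no shZHX2 group in normoxia was analysed here. Each group had 1 list of called regions for its 3 samples, so no spread between replicates and no p-value can be given. A region is called where the authors' peak caller listed it.

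HIF is broken down while oxygen is present, because prolyl hydroxylases mark its alpha subunit for the VHL ubiquitin ligase. When oxygen falls it accumulates, pairs with ARNT and binds short elements with the core letters ACGTG or GCGTG. Among its targets, BHLHE40 and BHLHE41 are helix-loop-helix repressors that bind the E-box CACGTG, MXI1 pairs with MAX at the same letters and opposes MYC, and CITED2 competes with HIF for the coactivators CBP and EP300. BNIP3 and BNIP3L sit on the outer mitochondrial membrane and mark mitochondria for autophagy. DDIT4 restrains the growth kinase complex mTORC1, INSIG2 holds the sterol sensor SCAP in the endoplasmic reticulum, NDRG1 is a stress-induced cytoplasmic protein, and ANKRD37 is a small ankyrin-repeat protein.

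The 250 bases before each annotated start were searched on both strands for the E-box CACGTG and for the HIF core (ACGTG or GCGTG) in the 8 genes that the RefSeq promoter table (GRCh38.p14) holds. ACGTG is part of CACGTG, so a CACGTG counts in both searches. BHLHE40, BHLHE41, CITED2, BNIP3 and ANKRD37 (5 of 8) held CACGTG in at least 1 window, against 9.73% of 15842 protein-coding genes. All 8 held ACGTG, against 25.3% of genes, and 56.8% of genes held ACGTG or GCGTG. MXI1, with 3 annotated starts, had neither before the first, both before the second and GCGTG alone before the third. The windows of the 8 genes had a median G and C content of 68.4% (13 windows), against 62% over the windows of protein-coding genes. A match describes letters and is not a binding site. The 5 windows with CACGTG are shown because these letters are read both by the E-box repressors and, in part, by HIF. Capitals mark each ACGTG or GCGTG on either strand, and each sequence runs 5′ to 3′ on the strand of its gene and ends at the base before the start.
BHLHE40, chr3:4979187-4979436, plus strand: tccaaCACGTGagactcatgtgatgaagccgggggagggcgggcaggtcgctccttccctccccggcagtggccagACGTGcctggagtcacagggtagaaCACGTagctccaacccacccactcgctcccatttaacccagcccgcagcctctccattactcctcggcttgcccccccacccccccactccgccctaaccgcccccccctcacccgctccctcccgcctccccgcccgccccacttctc
BHLHE41, chr12:26125038-26125287, minus strand: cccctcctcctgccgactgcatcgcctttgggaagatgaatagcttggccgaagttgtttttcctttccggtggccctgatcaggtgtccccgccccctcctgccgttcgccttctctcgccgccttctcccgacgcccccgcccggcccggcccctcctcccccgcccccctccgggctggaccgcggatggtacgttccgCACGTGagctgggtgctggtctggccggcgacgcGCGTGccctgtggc
CITED2, chr6:139374649-139374898, minus strand: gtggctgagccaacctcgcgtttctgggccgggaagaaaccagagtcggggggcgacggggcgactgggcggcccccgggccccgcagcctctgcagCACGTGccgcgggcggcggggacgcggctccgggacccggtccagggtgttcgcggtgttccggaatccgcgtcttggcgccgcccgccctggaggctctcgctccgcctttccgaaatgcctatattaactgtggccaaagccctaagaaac
BNIP3, chr10:131981924-131982173, minus strand: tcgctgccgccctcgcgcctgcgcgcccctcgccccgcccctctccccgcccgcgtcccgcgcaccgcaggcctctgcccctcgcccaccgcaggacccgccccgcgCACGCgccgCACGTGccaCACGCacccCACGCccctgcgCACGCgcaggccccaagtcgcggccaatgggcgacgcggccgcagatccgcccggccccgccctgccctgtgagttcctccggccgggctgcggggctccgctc
ANKRD37, chr4:185396591-185396840, plus strand: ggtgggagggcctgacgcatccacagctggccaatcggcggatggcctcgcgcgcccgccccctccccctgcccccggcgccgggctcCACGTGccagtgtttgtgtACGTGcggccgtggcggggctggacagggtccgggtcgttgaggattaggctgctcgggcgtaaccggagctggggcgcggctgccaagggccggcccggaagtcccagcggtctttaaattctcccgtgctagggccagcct

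At BHLHE40, CITED2, BNIP3 and ANKRD37 all 250 bases of the window shown lay inside a called region in all 3 lists. At BHLHE41 none of the 250 bases was called in any list. Its CACGTG begins 48 bases before the start, and the nearest region lay 553 bp upstream of the start in hypoxia with shZHX2, 855 bp upstream in hypoxia with shCtrl and 853 bp upstream in normoxia with shCtrl. The BHLHE41 start thus lay between that upstream region and another inside the gene.

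Most of the accessible sites at these genes were called in every list. Merging overlapping regions gave 46 sites, of which 35 (76.1%) were called in all 3 lists, against 58.4% of the 97804 sites of the whole series. Another 5 were called in both shCtrl lists and not with shZHX2 (10.9%, against 15.3% of all sites). Normoxia alone held 5 (10.9% against 16.7%) and shZHX2 alone held 1 (2.17% against 2.05%). No site was called in hypoxia with shCtrl alone. The regions were wide for their lists: the median width was 768.5 bp against 474 bp over all regions with shZHX2, 739.5 bp against 463 bp in hypoxia with shCtrl, and 672 bp against 496 bp in normoxia. The median number of regions per gene was 4 in each hypoxia list and 4.5 in normoxia, against 2 with shZHX2 and 3 in each shCtrl list over protein-coding genes with a region.

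**Figure D1:**
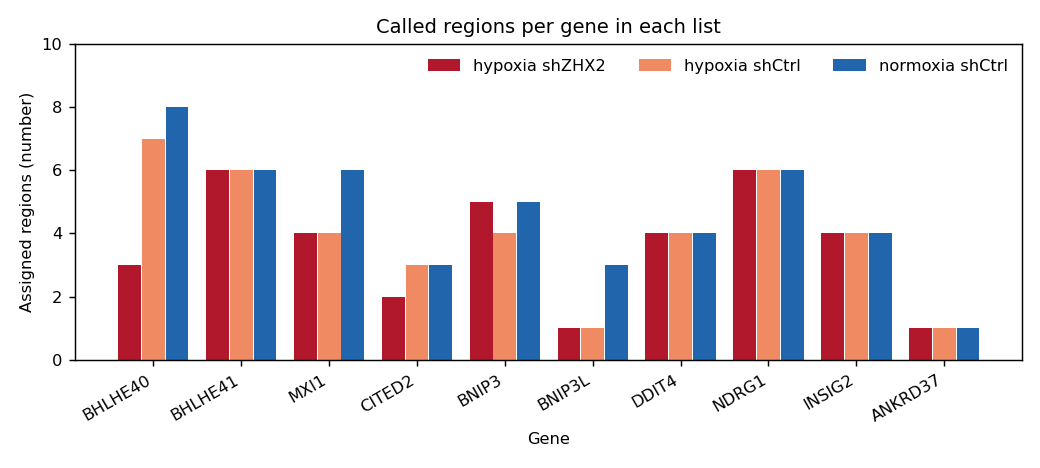
Number of called regions assigned to each gene (axis of counts) in hypoxia with shZHX2, hypoxia with shCtrl and normoxia with shCtrl; each bar is 1 list. BHLHE40 has 3, 7 and 8 regions in these lists, while BHLHE41, DDIT4, NDRG1, INSIG2 and ANKRD37 have the same number in all 3.

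The gene starts were called throughout. All 10 genes had a region within 1 kb of a start in every list, where 70.3% of protein-coding genes did with shZHX2, 72.0% in hypoxia with shCtrl and 73.8% in normoxia. A start base itself was covered at 9 of the 10, the exception being BHLHE41. Over protein-coding genes it was covered at 64.6% with shZHX2, 65.8% in hypoxia with shCtrl and 67.2% in normoxia. NDRG1 and BNIP3L are not in the promoter table, so both of their gene ends were used, and 1 end of each was covered. The folds below are the authors' enrichments over the local background within a list, set side by side, and are not a measured change between lists.

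BHLHE40, the E-box repressor, had a start fold of 3.68 in hypoxia with shZHX2, 3.88 in hypoxia with shCtrl and 4.12 in normoxia. CITED2, the competitor for HIF coactivators, had 4.49 with shZHX2, 3.78 in hypoxia with shCtrl and 4.37 in normoxia. In each list both were below the start folds of BNIP3, BNIP3L, DDIT4, NDRG1, INSIG2 and ANKRD37.

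MXI1, the MYC antagonist, was called over all 3 of its starts in all 3 lists. The third start, the strongest by fold, had 4.63 with shZHX2, 4.55 in hypoxia with shCtrl and 4.38 in normoxia. The second had 3.26 with shZHX2, 3.02 in hypoxia with shCtrl and 3.73 in normoxia. The first, with no ACGTG or GCGTG before it, had a narrow region with folds of 2.36 with shZHX2, 3.35 in hypoxia with shCtrl and 3.61 in normoxia. When each list is split into 10 equal parts by score, from decile 1 (weakest) to decile 10 (strongest), that region stood in decile 5 with shZHX2 and decile 8 in both shCtrl lists.

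The mitophagy receptors had strong start regions. BNIP3 had folds of 6.73 with shZHX2, 6.13 in hypoxia with shCtrl and 6.44 in normoxia. BNIP3L had 6.99 with shZHX2, 7.32 in hypoxia with shCtrl and 7.07 in normoxia. Both therefore had start folds above the median fold of all regions in every list, which was 4.79 with shZHX2, 4.26 in hypoxia with shCtrl and 4.13 in normoxia. That median takes in regions away from starts, and the folds of start regions over other genes were not compared.

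Among the other feedback genes, DDIT4 had start folds of 5.92 with shZHX2, 5.64 in hypoxia with shCtrl and 4.54 in normoxia. INSIG2 had 7.37 with shZHX2, 7.96 in hypoxia with shCtrl and 7.89 in normoxia. NDRG1, on chromosome 8, had 7.44 with shZHX2 (133297024 to 133298073), 6.75 in hypoxia with shCtrl and 6.65 in normoxia. The NDRG1 region had the highest score of any start region of the 10 genes in each list. ANKRD37 had 1 region in all, with folds of 6.42 with shZHX2, 6.24 in hypoxia with shCtrl and 6.16 in normoxia. It also overlapped LRP2BP, so it cannot be assigned to either gene alone. Outside MXI1 and BHLHE41, the start region of every one of the 10 genes stood in score decile 9 or 10 of each list.

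**Figure D2:**
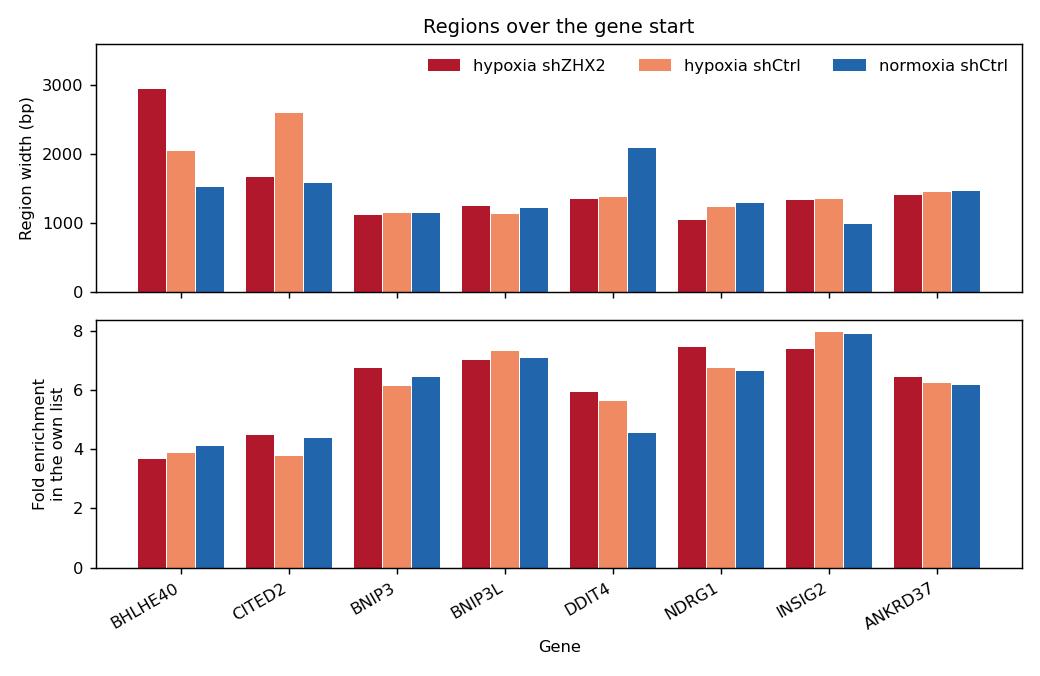
Width (upper panel, bp) and fold enrichment in the own list (lower panel) of the region over the gene start in hypoxia with shZHX2, hypoxia with shCtrl and normoxia with shCtrl, for the 8 genes with 1 such region per list; each bar is 1 region. BHLHE40 is widest with shZHX2 (2946 bp), CITED2 in hypoxia with shCtrl (2595 bp) and DDIT4 in normoxia (2093 bp).

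The width of the start region differed between lists at BHLHE40, CITED2, INSIG2, DDIT4 and MXI1, which were singled out after their widths were seen. The BHLHE40 start region spanned 2946 bp in hypoxia with shZHX2 (4977548 to 4980493 on chromosome 3), 2050 bp in hypoxia with shCtrl (4977653 to 4979702) and 1523 bp in normoxia (4978165 to 4979687). Its width in hypoxia with shCtrl was 1.35 times that in normoxia, and 1.03% of 10374 pairs of start regions had a ratio at least as high. Such pairs were taken at annotated starts of protein-coding genes that a region covered in both lists. With shZHX2 the BHLHE40 start region was 1.44 times as wide as in hypoxia with shCtrl, and 1.92% of 10135 pairs had a ratio at least as high. The stretch with shZHX2 reached a separate normoxia region in the gene (4980322 to 4980534), which no hypoxia shCtrl region touched.

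CITED2 had a start region of 2595 bp in hypoxia with shCtrl, against 1576 bp in normoxia, a ratio of 1.65 that 0.405% of pairs reached. With shZHX2 it measured 1664 bp, or 0.641 times the hypoxia shCtrl width, and 2.59% of pairs had a ratio as low. At INSIG2 it was also wider in hypoxia, with 1350 bp in hypoxia with shCtrl against 985 bp in normoxia, a ratio of 1.37 that 0.964% of pairs reached. At DDIT4 it was narrower, with 1377 bp in hypoxia with shCtrl against 2093 bp in normoxia, a ratio of 0.658 that 3.15% of pairs matched or fell below. With shZHX2 the start region measured 1336 bp at INSIG2 and 1356 bp at DDIT4, close to the hypoxia shCtrl widths. At the second start of MXI1 the ratio of hypoxia shCtrl to normoxia was 1.11, which 3.26% of pairs reached. At its first start the width with shZHX2 was 0.781 times that in hypoxia with shCtrl, and 5.56% of pairs had a ratio as low.

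Hypoxia was set against normoxia in shCtrl cells to ask which sites at these genes are called only when oxygen is low. No such site was found: 0 of 40 hypoxia regions were absent from normoxia, where 6.44% of all hypoxia regions were, and 5.61% of those assigned to a protein-coding gene. A count of 0 in 40 allows a share of up to 7.5%, so at this number a difference from all regions was not detectable. Over protein-coding genes with a hypoxia region, 16.2% had at least 1 hypoxia-only region.

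In the other direction, 6 of 46 normoxia regions (13.0%, Wilson 95% interval 6.12 to 25.7) were not called in hypoxia with shCtrl, against 20.6% of all normoxia regions and 19.1% of those assigned to a protein-coding gene. The interval covers counting error only, takes the regions as independent although several lie at the same gene, and includes both shares. The order of these shares depended on the lists: with lists of equal length the 10 genes stood above all regions, at 15.4% against 11% by score and 16.2% against 12.6% by fold. The 6 regions lay at 4 of the 10 genes, where 43.8% of protein-coding genes with a normoxia region had at least 1.

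BNIP3L, the mitophagy receptor also known as NIX, had 1 region in hypoxia with shCtrl against 3 in normoxia. Its normoxia-only regions lay inside the gene on chromosome 8, at 26395702 to 26396287 (fold 4.36) and 26409461 to 26410388 (fold 3.51). Neither was called with shZHX2. Of 2841 protein-coding genes with 3 normoxia regions, 6.41% had at least 2 that were not called in hypoxia. With a −log10 q of at least 20 required, or with lists of equal length by score, 1 such region was counted.

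MXI1 had 4 regions in hypoxia with shCtrl against 6 in normoxia. Its normoxia-only regions lay between the second and the third starts, at 110215942 to 110216623 (fold 4.65) and 110221800 to 110222010 (fold 2.04) on chromosome 10, both overlapping the uncharacterised LOC105378480. Of 1073 protein-coding genes with 6 normoxia regions, 31.5% had at least 2 such regions. Under the same stricter settings 1 was counted.

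BNIP3 had 1 normoxia-only region, at 131993866 to 131994268 on chromosome 10 (fold 4.35), 11943 bp upstream of its start. It was not counted where the nearest gene end was taken over all genes. BHLHE40 had 1 that was not called in hypoxia with shCtrl, the region inside the gene at 4980322 to 4980534 (fold 1.84). The start region with shZHX2 overlapped it, so it was not called in normoxia alone. At BHLHE40 that count was 3 with a −log10 q of at least 20 or with lists of equal length by score, and 0 with lists of equal length by fold.

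The normoxia regions that were not called in hypoxia with shCtrl were in the lower and middle part of the normoxia list by score. None in deciles 7 to 10 was lost, and 0.308% of all regions in decile 7 were. Of 16 in deciles 1 to 5, 4 were lost (25%), against 40.6% of all regions there. These were 2 of 4 in decile 3, against 39.9% of all regions, and 2 of 5 in decile 5, against 9.46%. In decile 1, 0 of 3 were lost against 73.5%, and in decile 4, 0 of 4 against 22.9%. In decile 6, 2 of 7 were lost, the MXI1 region of fold 4.65 and the BHLHE40 region, against 2.68% of all regions in that decile.

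**Figure D3:**
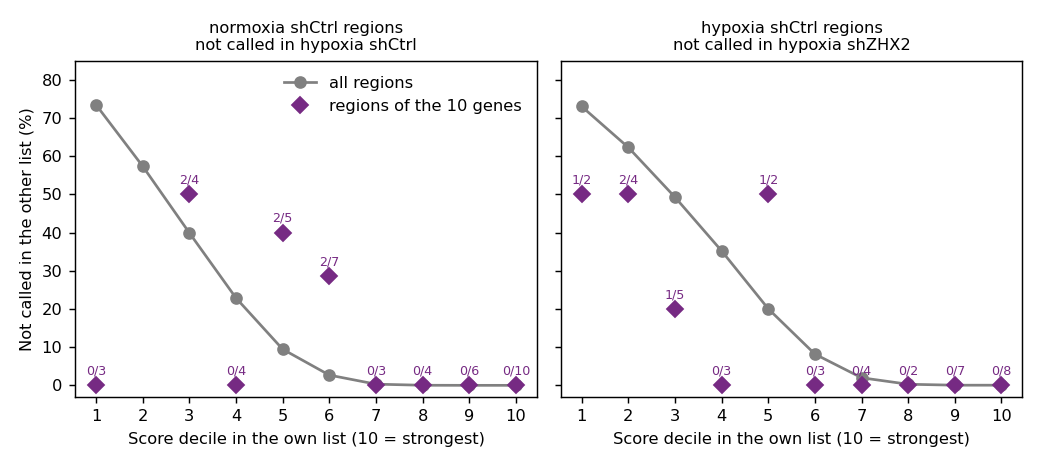
Share of regions not called in the other list (vertical axis, %) by score decile in the own list (horizontal axis, 10 is strongest), for normoxia shCtrl regions against the hypoxia shCtrl list (left) and hypoxia shCtrl regions against the hypoxia shZHX2 list (right). Circles joined by a line give all regions and diamonds the 10 genes, with the number lost over the number in the decile; at the 10 genes no region of decile 7 or above was lost in either panel.

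ZHX2 knockdown was set against shCtrl in hypoxia to ask which sites differ with ZHX2. Of 40 hypoxia shCtrl regions, 5 (12.5%, Wilson 95% interval 5.46 to 26.1) were not called with shZHX2, against 25.0% of all hypoxia shCtrl regions and 22.6% of those assigned to a protein-coding gene. As before, the interval covers counting error only and takes regions of the same gene as independent. It includes both shares. The 5 lay at BHLHE40 and CITED2, or 2 of 10 genes, where 44.7% of protein-coding genes with a hypoxia shCtrl region had at least 1.

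BHLHE40 held 4 of the 5, with 3 regions with shZHX2 against 7 with shCtrl in hypoxia. Upstream of the gene, the uncalled regions lay at 4943604 to 4943935 (35502 bp away, fold 3.57 with shCtrl) and 4976201 to 4976476 (2961 bp away, fold 1.82), both overlapping the antisense gene BHLHE40-AS1. Downstream, they lay at 4994949 to 4995159 (9626 bp away, fold 3.14) and 5018071 to 5018293 (32748 bp away, fold 3.21). All 4 sites were also called in normoxia, so they were present in both shCtrl lists. Of 635 protein-coding genes with 7 hypoxia shCtrl regions, 7.72% had at least 4 that were not called with shZHX2. The count of 4 was 2 with a −log10 q of at least 20, with lists of equal length by score, and within 20 kb.

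The other 3 BHLHE40 regions were called in all 3 lists, at the start, just past the other gene end and far downstream. The one far downstream, 40968 bp past the gene with shZHX2, was the strongest by fold, with 7.72 with shZHX2, 7.19 in hypoxia with shCtrl and 7.28 in normoxia. It was also the farthest region assigned to any of the 10 genes. The nearest region outside the 50 kb window lay 58905 bp from NDRG1 with shZHX2, 58946 bp from NDRG1 in hypoxia with shCtrl (fold 3.30), and 50588 bp upstream of BHLHE40 in normoxia (fold 3.44).

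CITED2 had 1 region that was not called with shZHX2, at 139369109 to 139369763 on chromosome 6, 2044 bp past the end of the gene (fold 2.45 with shCtrl). It was not counted with a −log10 q of at least 20 or with lists of equal length. The start region of CITED2 and one 21999 bp past the gene with shZHX2 were called in all 3 lists.

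**Figure D4:**
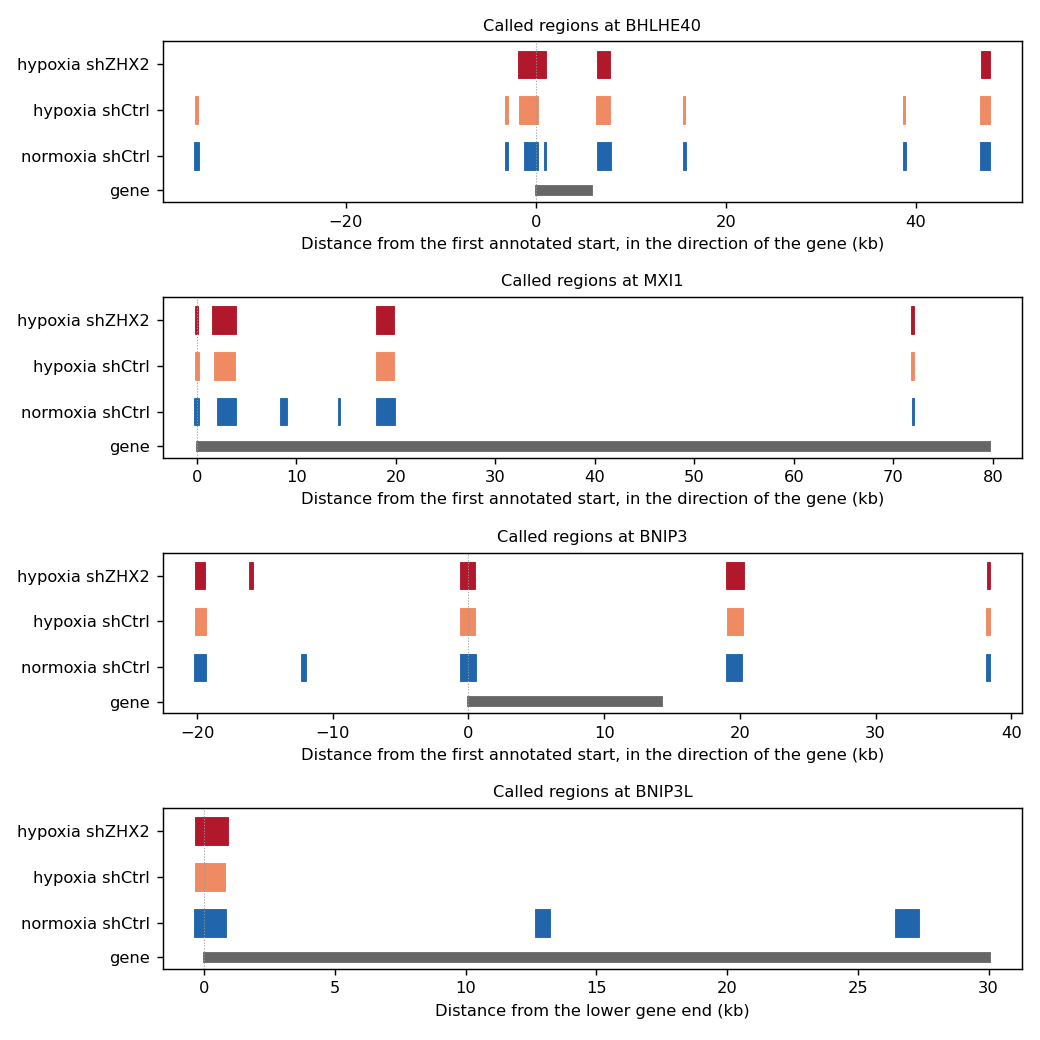
Called regions (boxes, to scale apart from a thin outline) at BHLHE40, MXI1, BNIP3 and BNIP3L in each list, by distance in kb from the first annotated start, or from the lower gene end for BNIP3L; the grey bar is the gene. At BHLHE40, 4 narrow regions stand in both shCtrl lists and not with shZHX2, and at MXI1 and BNIP3L 2 regions inside each gene stand in normoxia only.

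NDRG1 and BHLHE41 each had 6 regions, all called in all 3 lists. In hypoxia with shCtrl, NDRG1 had 4 regions in score deciles 1 to 5 and BHLHE40 also had 4. All 4 at NDRG1 were called with shZHX2 and none of the 4 at BHLHE40 was, a contrast picked out after the calls were seen. Over the 10 genes, 5 of 16 regions in these deciles were lost (31.2%, against 48.0% of all regions there), and 0 of 24 in deciles 6 to 10. Few of all regions were lost there too, from 8.19% in decile 6 and 1.99% in decile 7 down to 0.0387% in decile 10.

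Some regions called in all 3 lists stood at different ranks in them, and these too were picked after their values were seen. An NDRG1 region 2026 bp beyond the lower gene end had folds of 5.33 with shZHX2, 3.02 in hypoxia with shCtrl and 3.46 in normoxia, in score deciles 6, 2 and 3 of those lists. A BHLHE41 region 18241 bp past the gene had folds of 5.90 with shZHX2, 2.90 in hypoxia with shCtrl and 3.18 in normoxia, in deciles 7, 2 and 3. Both ranked higher with shZHX2 than in either shCtrl list. Another BHLHE41 region, 33437 bp upstream of the start, ranked lower there, with folds of 3.63 with shZHX2 (decile 2), 6.11 in hypoxia with shCtrl (decile 7) and 5.91 in normoxia (decile 6). That one overlaps SSPN, as do 2 of the other BHLHE41 regions.

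In the other direction, 1 of 36 regions with shZHX2 was not called with shCtrl in hypoxia (2.78%, Wilson 95% interval 0.492 to 14.2), against 7.11% of all shZHX2 regions and 6.43% of those assigned to a protein-coding gene. It lay 15882 bp upstream of BNIP3, at 131997805 to 131998086 on chromosome 10, where it overlaps the uncharacterised LOC124902525. Its fold was 2.51, and it ranked 62211 of 62779 by score. Over protein-coding genes with a shZHX2 region, 15.8% had at least 1 such region. It was not counted with a −log10 q of at least 20, or where the nearest gene end was taken over all genes.

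**Figure D5:**
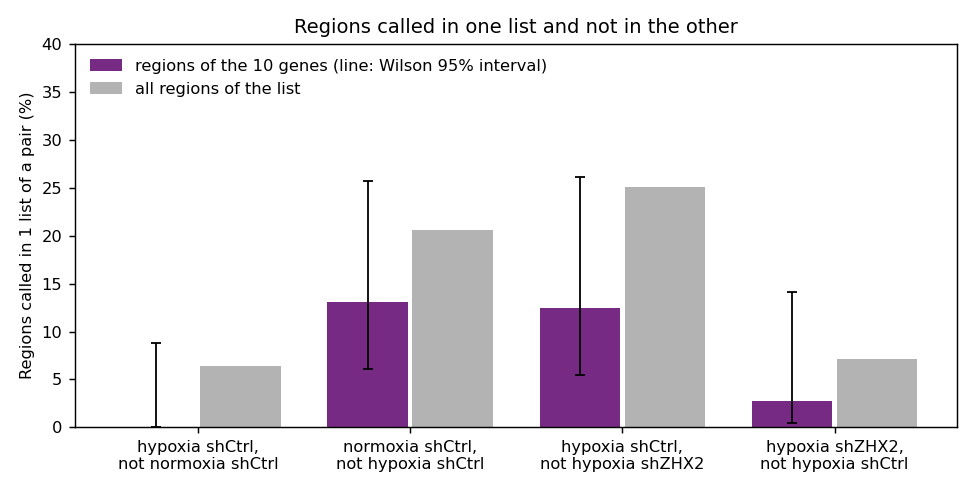
Share of regions called in 1 list and missing from the other (vertical axis, %) for the 10 genes, with lines for Wilson 95% intervals, and for all regions of the list, in the 4 comparisons. The 10 genes stand at 0% for hypoxia shCtrl regions not called in normoxia and 13.0% for normoxia regions not called in hypoxia with shCtrl. They stand at 12.5% for regions lost with shZHX2 and 2.78% for regions gained with shZHX2. Each interval includes the share of all regions.

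DDIT4, INSIG2 and ANKRD37 had the same regions called in all 3 lists. Of the 4 at DDIT4, the one 21644 bp past the gene was the strongest by fold, with 7.94 with shZHX2, 8.21 in hypoxia with shCtrl and 7.52 in normoxia. Of the 4 at INSIG2, the one 31481 bp past the gene had 5.14 with shZHX2 and 4.50 in hypoxia with shCtrl, against 8.08 in normoxia. It stood in decile 5 of both hypoxia lists and decile 8 of normoxia. BNIP3 had 4 sites called in all 3 lists, of which 2 overlap PPP2R2D, a phosphatase subunit gene.

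Other genes of the same pathways were also mostly called at the start. Over 55 genes, a start was called at 53 with shZHX2 and at 54 in each shCtrl list. Over protein-coding genes the share was 70.3% with shZHX2, 72.0% in hypoxia with shCtrl and 73.8% in normoxia. SESN3, a stress-induced mTORC1 regulator, was called at its start in both shCtrl lists and not with shZHX2, and DDIT4L in none. All 16 mitophagy receptors and adaptors, 12 bHLH repressors and MAX partners, 10 HIF feedback genes, 6 sterol sensing genes and 3 other NDRG genes had a called start in every list, as had 6 of 8 mTORC1 regulators with shZHX2.

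Hypoxia-only regions made up 9 of 215 hypoxia shCtrl regions at these 55 genes (4.19%, against 6.44% of all regions). In normoxia 46 of 251 regions (18.3%, against 20.6% of all) were not called in hypoxia with shCtrl. Of these, 6 lay at the coactivator gene CREBBP and 4 at MAX. In hypoxia with shCtrl 38 of 215 (17.7%, against 25.0% of all) were not called with shZHX2. Of these, 3 each lay at the prolyl hydroxylase gene EGLN3 and the sterol genes SCAP and SREBF1. The share not called with shZHX2 was 27.5% (11 of 40) for the HIF feedback list and 8.51% (4 of 47) for the bHLH repressors and MAX partners. With shZHX2, 9 of 186 regions (4.84%, against 7.11% of all) were not called with shCtrl in hypoxia. Over the 55 genes together, each of the 4 shares lay below that of all regions.

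The lists covered 40.6 Mb with shZHX2, 48.5 Mb in hypoxia with shCtrl and 60.1 Mb in normoxia. Read depth is unknown, so depth and condition cannot be told apart as sources of the number of regions in a list. Of 10 luminal markers, 9 had a called start in each hypoxia list and 10 in normoxia, TFF1 being called in normoxia alone. In every list starts were called at 2 of 5 markers of blood, at 2 of 5 of stroma and endothelium, and at 3 of 4 of liver and neurons. PTPRC, PECAM1, VWF and ALB had no called start in any list. ATAC-seq does not measure RNA, so the knockdown of ZHX2 could not be checked.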

How the data were processed

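ATAC-seq regions of T47D cells came as 3 deposited files, 1 per group, in a broad-peak layout of 9 columns without a header. The submitters' processing notes name FastQC, Bowtie2, SAMtools, MACS2 and the build hg38. The sources used here do not state versions or settings, how a group was joined from 3 samples, or whether reads were shifted for the transposase. For each region the authors deposited a fold enrichment (a ratio to the local background), a score, and the −log10 of the p-value and of the q-value, its adjusted form.

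Regions were treated as shared between lists where they overlapped by 1 bp or more. Gene spans, without exons, were those of RefSeq on GRCh38.p14, the assembly behind hg38. Starts were taken from the RefSeq promoter windows, and for 4192 protein-coding genes without one both gene ends were used. Score deciles were made within a list. Python 3.11.15, pandas 2.3.3, numpy 2.4.6 and scipy 1.17.1 were used, and the sharing and assignment steps were tested on simulated data. No file holds values per sample, so no test was run. All 10 genes are named, each with its start region and any region not called in every list. Of other pathway genes, those with a differing start call, or up to 3 per comparison with the most regions called in 1 list alone, are named, with ties, and some items are not reported here. Other regions were chosen after their values were seen. The 10 genes and the lists were chosen with earlier results of these data known. Alternatives changed the overlap, threshold, list length, window and assignment. No genome sequence was used here, so distal regions were not searched for motifs.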

Additional observations from a re-analysis of the deposited data

How the results depend on the processing

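No paired analysis was possible because each group has 1 list and no file holds values per sample, and for the same reason no replicate could be left out. The counts of start calls, and of normoxia regions not called in hypoxia with shCtrl (6), stayed within 1.5 times under every alternative run. Which normoxia regions these were, and their share against all regions, did not stay as they were. That share was above all regions with lists of equal length by score (15.4% against 11%) and by fold (16.2% against 12.6%), and with a −log10 q of at least 20 (17.9% against 17.3%). By score, 2 other BHLHE40 regions stood in place of 1 at MXI1 and 1 at BNIP3L. By fold, 1 at NDRG1 and the region over the second start of MXI1 stood in place of 1 at BHLHE40 and 1 at MXI1. The share gained with shZHX2 was above all regions by fold (19.4% against 17.1%) and with a −log10 q of at least 20 (6.9% against 5.97%). By score it was below (11.1% against 14.5%), as in the main run (2.78% against 7.11%). The cause was not tested. Keeping the 62779 highest-scoring regions of each list gave 1 hypoxia-only region (at MXI1), 2 lost with shZHX2 (both at BHLHE40) and 4 gained with shZHX2. In that order the shares were 2.94% against 10.7% of all regions, 5.88% against 14.9%, and 11.1% against 14.5%. Keeping as many by fold gave 1 (3.12% against 12.4%), 3 (all at BHLHE40, 9.38% against 17.4%) and 7 (19.4% against 17.1%). A −log10 q of at least 20 in both lists gave 2 gained with shZHX2, at BHLHE41 and NDRG1. It left the number lost at 5 (15.6% against 23.2%), now 2 at BHLHE40 and 1 each at BHLHE41, BNIP3 and NDRG1. Assignment within 20 kb gave 3 lost with shZHX2 (10% against 25%), and the nearest end over all genes gave 0 gained (0% against 7.11%). Counts of so few regions carry counting error, and depth, which is unknown, limits what is called in each list.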
